A study of Homo sapiens with 6 samples.

Results

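The 45 protein-coding ATP-binding cassette (ABC) transporter genes named ABCA to ABCG were analysed in A549 cells, an established line from a human lung adenocarcinoma. They were the rows of a table of 58174 genes, 19799 of them protein-coding, that were listed as protein-coding and bore a symbol of ABC, a letter from A to G and a number. Polyadenylated RNA of 3 libraries of parental cells (Ctrl) was compared with that of 3 libraries of cells lacking the MIR21 gene (MIR21-KO). Both groups grew in DMEM with fetal bovine serum and were harvested 48 h after seeding. The MIR21-KO cells had received Cas9 and a pair of guide RNAs and were single-cell clones, whereas Ctrl cells were the parental population. How many clones stand behind the 3 MIR21-KO libraries is not given in the sources used here, so properties of a clone and of the deletion cannot be told apart. The study calls its RNA-seq samples independent, but neither it nor the labels say whether libraries of a group came from separate cultures or clones. P-values measure the spread between these samples, whatever its source.

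ABC transporters bind and hydrolyse ATP to move substrates across membranes. One branch pumps drugs, drug conjugates and bile acids out of the cell and is known for drug resistance of tumors. Another moves cholesterol and phospholipids, in lung alveolar cells also surfactant lipids. Further members serve peroxisomes, mitochondria and lysosomes, and the ABCE and ABCF proteins lack membrane domains and act on ribosomes. The 45 genes were grouped accordingly into 10 drug-efflux pumps, 17 lipid and sterol transporters, 3 peroxisomal fatty acid transporters, 6 other organelle transporters, 4 genes without a membrane domain and 5 others.

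MIR21 itself was listed at 0 in each library, which checks nothing because polyA selection does not keep mature miRNAs or their short precursors. Values are FPKM, fragments per kilobase of gene length, scaled to the authors' library size, and the reads behind them summed to 10631667 to 14345209 per library. Counts of the 3 MIR21-KO libraries differed more among themselves (chi-square per degree of freedom 7.67 to 32.9, highest for replicates 1 and 3) than those of the 3 Ctrl libraries (2.64 to 5.13), against 48.9 to 76.7 between groups. On a gene of 1 kb, 1 read was worth 0.0731 to 0.0930 FPKM. All 37 mitochondrial genes were listed at 0, so a listed 0 need not mean absence. The epithelial keratins KRT7, KRT8 and KRT19 had group means of 88.3 to 551.3 FPKM and overlapped between groups. EPCAM, another epithelial marker, was low and also overlapped, with 1.19 ± 0.523 FPKM in Ctrl and 0.695 ± 0.288 FPKM in MIR21-KO. Keratin KRT18 had 673 ± 25.3 FPKM in Ctrl and 422 ± 82.2 FPKM in MIR21-KO without overlap, and was not called by limma, a linear model fitted over all genes (log2 fold change -0.69, false discovery rate or FDR = 0.0153), whereas voom, a model of the reads, gave an FDR of 0.00277. The endothelial markers had no tested gene, although TEK had 0 to 3 reads in Ctrl and 4 to 7 in MIR21-KO libraries, and of the immune markers CD3E was at 0, PTPRC had at most 2 reads and CD14 stood at 3.46 and 4.31 FPKM in Ctrl and MIR21-KO. The fibroblast marker COL1A2 was at 0, whereas COL1A1 had 3.41 and 3.91 FPKM and LUM 2.11 and 1.88 FPKM. The other fibroblast markers were too low to test, and for 2 of them every MIR21-KO library lay above every Ctrl library. COL3A1 had 0.112 ± 0.0703 FPKM in Ctrl and 0.589 ± 0.0472 FPKM in MIR21-KO (5 to 14 and 45 to 56 reads, FDR = 0.0167 by limma without the filter on low values). PDGFRB had 1 to 3 reads in Ctrl and 8 to 15 in MIR21-KO libraries (FDR = 0.139 by limma without the filter). Markers of alveolar type 2 cells were low, with NKX2-1 at 0, SFTPC at no more than 0.0917 FPKM in any library and NAPSA at 0.595 and 0.690 FPKM in Ctrl and MIR21-KO. SFTPD, surfactant protein D, had 0, 0 and 1 read in Ctrl and 12, 5 and 4 reads in MIR21-KO libraries (FDR = 0.0272 by limma without the filter). In bulk RNA, fewer cells of a kind and less RNA per cell cannot be told apart.

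In MIR21-KO cells 2 of the 45 genes rose and 4 fell. The drug-efflux pumps ABCC4 and ABCG2 fell 2.51-fold and 2.47-fold, and ABCC3, another pump, rose 1.31-fold. The lipid transporter ABCA7 rose 1.86-fold, and ABCE1 and ABCF2, both without a membrane domain, fell 1.73-fold and 1.41-fold. The other 19 genes that entered the test were not called. A mean of at least 0.5 FPKM over the 6 libraries was required for testing, which 25 of the 45 genes reached. Differences were tested with limma on log2(FPKM + 0.1) over 16006 genes, with p-values adjusted by the Benjamini-Hochberg method to false discovery rates (FDR) and calls at an FDR under 0.01. All log2 fold changes are MIR21-KO over Ctrl on this scale, which understates changes of genes near 0. Of all tested genes, 16.0% were called, 7.66% higher and 8.38% lower, against 6 of the 25 ABC genes. Among protein-coding genes 19.7% were called, 9.1% higher and 10.6% lower. Groups were fully separated, with no overlap between libraries, for 19 of the 25 genes. Of these 9 were higher and 10 lower, while of all tested genes 48.1% were separated (22.8% higher, 25.2% lower) and of protein-coding genes 55.2% (25.1% higher, 30.1% lower). The median log2 fold change of the 25 genes was -0.01, and that of all tested genes was -0.02.

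**Figure D1:**
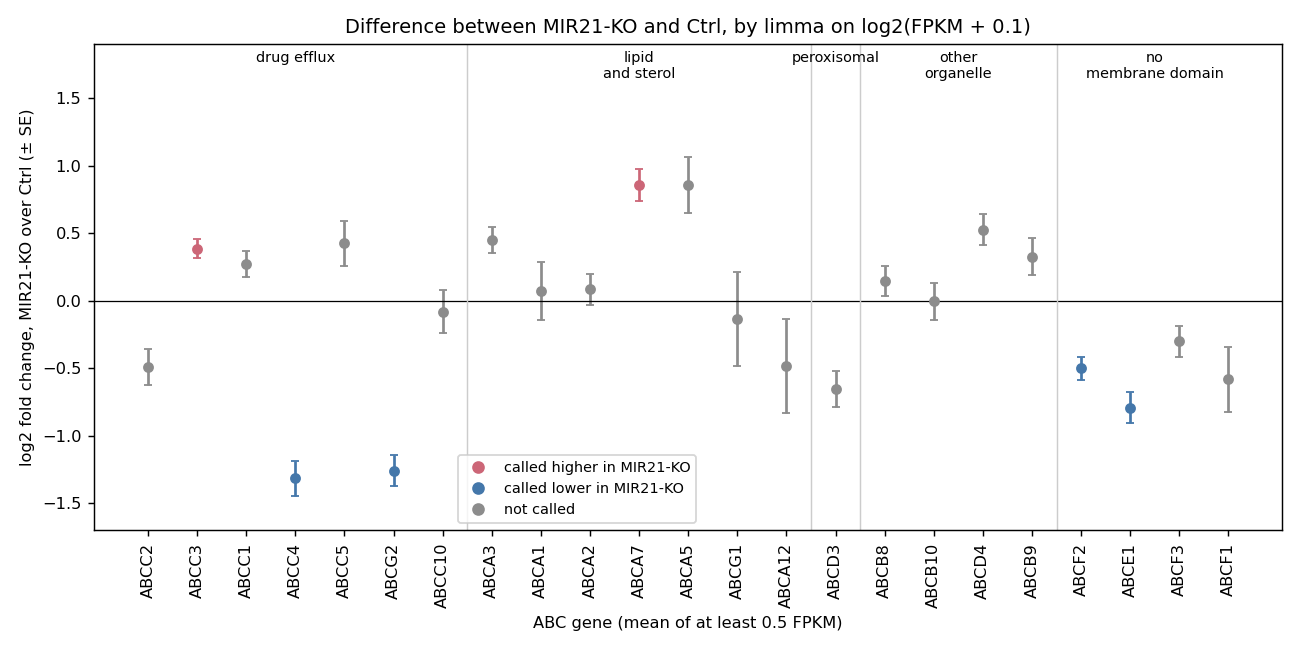
Log2 fold change (MIR21-KO over Ctrl, vertical axis) of 23 of the 25 tested ABC genes by group, with bars giving the standard error from limma; red and blue points were called higher and lower at an FDR under 0.01 and grey points were not called. ABCC4 and ABCG2 lie below -1, the other called genes between -0.79 and 0.86.

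Since the deleted gene encodes miR-21-5p, the ABC 3′ UTRs that hold a match to its seed are shown before the values. The mature sequence of RefSeq lies at chr17:59841273-59841294 on the plus strand of GRCh38.p14, and that of let-7a-5p, a miRNA the study also followed in these cells, at chr9:94175962-94175983. Capitals mark the seed, bases 2 to 8.
miR-21-5p: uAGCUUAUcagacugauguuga
let-7a-5p: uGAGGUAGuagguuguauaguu
The heptamer complementary to the miR-21-5p seed, ATAAGCT, was searched for in the longest 3′ UTR of a protein-coding transcript of each gene in GENCODE 29 on GRCh38. It was found in 6 of the 45 genes, of which ABCD3, ABCA5, ABCC2 and ABCA1 were among the 25 tested (16.0%), while 9.89% of 11641 tested protein-coding genes held it. The untested ABCA8 and ABCG8 also held it. Below, capitals mark the match in windows of the transcribed strand, at chr1:94518282-94518289 (plus) for ABCD3, chr17:69244434-69244440 (minus) for ABCA5, chr10:99852556-99852562 (plus) for ABCC2 and chr9:104783664-104783670 (minus) for ABCA1.
ABCD3: gagtataatcaATAAGCTAgatacgaaatc
ABCA5: ttatattaataATAAGCTttaagagttgaa
ABCC2: gaatttttattATAAGCTcgttctccttaa
ABCA1: gattccctctgATAAGCTgttctggtggca
ABCD3 held an 8mer, in which the heptamer is followed by an A, at bases 1153 to 1160 of a 3′ UTR of 1534 bases. In ABCC2 the match lay at bases 925 to 931 of 963, close to the end of the message, and in ABCA1 at bases 645 to 651 of 3313. The ABCA5 match, at bases 3097 to 3103 of 3226, falls in the 536 bases that the gene spans of ABCA5 and ABCA10 share on the same strand. None of these 4 genes was called by limma, though voom, which models the recovered reads and called 21.8% of all genes, called ABCD3 lower and ABCA5 higher. The log2 fold changes were -0.66 for ABCD3, 0.85 for ABCA5, -0.49 for ABCC2 and 0.07 for ABCA1. The 6 called genes held no miR-21-5p heptamer.

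The let-7 heptamer, CTACCTC, was present in ABCC2, ABCC5, ABCB9 and ABCC10 among the 25 tested genes (16.0%) and in 11.1% of the tested protein-coding genes, and it was also present in the untested ABCG4 and ABCA6. ABCC2 thus held a match to each seed. Its let-7 site is shown for that reason, at chr10:99851826-99851832 on the plus strand of GRCh38.
ABCC2, let-7 site: ccctcgattgtCTACCTCgatcgtacttcc
A match is a description of the sequence only, and whether any of these sites is bound was not tested.

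Of the pumps, ABCC4 had the largest fall. ABCC4 (ENSG00000125257, chr13:95019829-95301475, minus) exports cyclic nucleotides, prostaglandins and nucleotide analogue drugs. Its level was 9.36, 8.67 and 8.93 FPKM in Ctrl replicates 1 to 3 and 3.19, 3.24 and 4.31 FPKM in MIR21-KO replicates 1 to 3. All MIR21-KO libraries lay far below all Ctrl libraries. The log2 fold change was -1.32 ± 0.132 (SE, FDR = 0.000852, limma).

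ABCG2 (ENSG00000118777, chr4:88090264-88231322, minus), known as breast cancer resistance protein, exports urate, porphyrins and many anticancer drugs. It was measured at 4.47, 4.07 and 4.63 FPKM in Ctrl and at 1.92, 1.68 and 1.72 FPKM in MIR21-KO libraries. The groups were far apart, with 100 to 307 reads per library behind these levels. Its log2 fold change was -1.26 ± 0.116 (SE, FDR = 0.000574, limma).

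ABCC3 (ENSG00000108846, chr17:50634777-50692252, plus) exports glucuronide conjugates and bile acids across the basolateral membrane. Ctrl libraries had 40.8, 39.7 and 43.7 FPKM and MIR21-KO libraries 52.5, 56.0 and 53.8 FPKM. The groups were separated by more than the spread within either. The log2 fold change of 0.39 ± 0.0722 (SE) passed the threshold (FDR = 0.00815, limma), but the call was kept in only 10 of 21 alternative analyses, with FDRs of 0.00294 to 0.0530. These include a threshold of 0.05 on the same fit, at which the call could not be lost. It was kept without MIR21-KO replicate 3 and lost without any one of the other 5 libraries, with an FDR of 0.0476 without MIR21-KO replicate 2. Without any one of these 5, calls over all genes fell as well, from 2568 to between 768 and 2193.

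ABCC2, the apical exporter of glutathione and bilirubin conjugates, was the most abundant ABC mRNA of Ctrl cells. It had 74.1, 61.2 and 69.9 FPKM in Ctrl and 41.6, 48.2 and 56.6 FPKM in MIR21-KO libraries. Every MIR21-KO value lay under every Ctrl value, yet both groups varied widely, and the difference was not called (log2 fold change -0.49 ± 0.132 SE, FDR = 0.0300, limma). Without MIR21-KO replicate 3 it was called (FDR = 0.00746).

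ABCC1, the first multidrug resistance-associated protein, exports glutathione conjugates and leukotriene C4. Its levels of 19.7, 17.8 and 19.8 FPKM in Ctrl and 22.0, 21.5 and 26.0 FPKM in MIR21-KO libraries did not overlap but the difference was not called (log2 fold change 0.27, FDR = 0.0740, limma). ABCC5, an exporter of cyclic nucleotides and folates, showed 3.179, 2.28 and 2.79 FPKM in Ctrl against 3.22, 3.65 and 4.29 FPKM in MIR21-KO libraries, so the closest libraries nearly met (log2 fold change 0.43, FDR = 0.0962). For ABCC10, which carries taxanes, the groups overlapped, with 2.11, 1.86 and 2.44 FPKM in Ctrl and 1.95, 2.28 and 1.80 FPKM in MIR21-KO libraries (log2 fold change -0.08, FDR = 0.728).

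The remaining 3 pumps were too low to test. ABCB1, which encodes P-glycoprotein, and ABCB5 were listed at 0 in all 6 libraries. A count of 0 allows up to 3 reads, which for ABCB1 would be 0.0378 to 0.0480 FPKM depending on the library and covers counting error only. ABCC11, a pump of apocrine glands, had 4 to 13 reads per library.

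**Figure D2:**
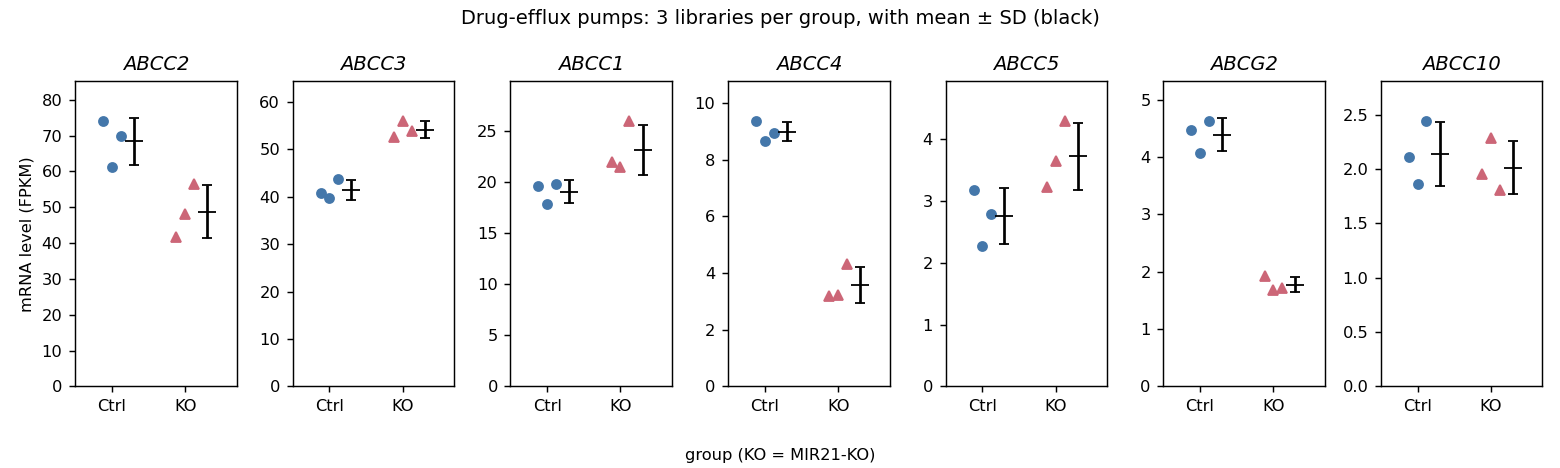
mRNA levels (FPKM, vertical axes from 0, a scale of its own for each gene) of the 7 tested drug-efflux pumps, with 1 point per library and black marks for the mean and SD of 3 libraries. Groups are apart for 6 pumps and overlap for ABCC10.

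The pumps were also compared as a set of levels per gene length. In Ctrl cells the order was ABCC2, ABCC3, ABCC1, ABCC4, ABCG2, ABCC5 and ABCC10, and only the libraries of ABCC5 and ABCC10 overlapped between neighbours. In MIR21-KO cells the order of the means was ABCC3, ABCC2, ABCC1, ABCC5, ABCC4, ABCC10 and ABCG2, with overlapping libraries within the pairs ABCC3 and ABCC2, ABCC5 and ABCC4, and ABCC10 and ABCG2. The summed level of the 10 pumps was 147.3 ± 10.1 FPKM in Ctrl and 137.2 ± 11.2 FPKM in MIR21-KO (SD, n = 3 each), a difference no larger than the spread. ABCC2 made up 48.2%, 45.1% and 45.9% of the pump sum in Ctrl libraries and 32.9%, 35.3% and 38.0% in MIR21-KO libraries. The share of ABCC3 went from 28.2 ± 1.42% to 39.6 ± 2.92%, and the ratio of ABCC2 to ABCC3 from 1.65 ± 0.143 to 0.901 ± 0.134. ABCC4 held 6.11 ± 0.265% and 2.60 ± 0.271%, and ABCG2 2.98 ± 0.0674% and 1.30 ± 0.193%. These shares follow from the gene values above and were not tested again.

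**Figure D3:**
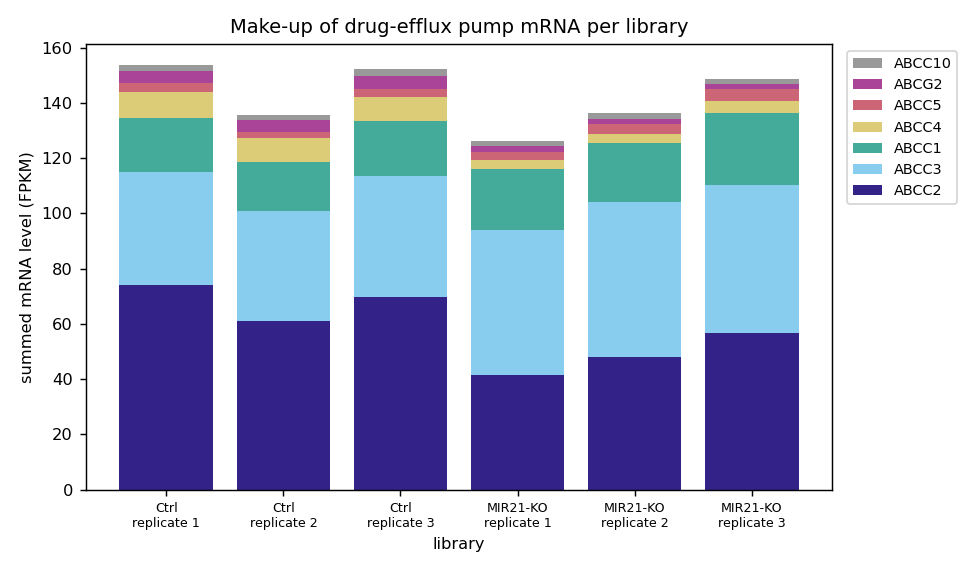
Summed mRNA level (FPKM) of the 7 tested drug-efflux pumps in each library, stacked by gene. The sum over all 10 pumps runs from 126.3 to 153.8 FPKM over the 6 libraries, and ABCC2 takes 45.1% to 48.2% of the sum in Ctrl and 32.9% to 38.0% in MIR21-KO libraries.

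Lipid and sterol transporters had a lower summed level than the pumps, whose sum came mostly from ABCC2, ABCC3 and ABCC1. Over the 6 libraries the leading lipid genes ABCA3 and ABCA1 had means of 5.98 and 3.90 FPKM. The pumps ABCC5, ABCG2 and ABCC10 had lower means, of 3.23, 3.08 and 2.08 FPKM, and ABCC4 had 6.28 FPKM. ABCC4 was above ABCA3 in Ctrl libraries (means of 8.99 and 5.05 FPKM) and below it in MIR21-KO libraries (3.58 and 6.91 FPKM). No tested gene of the lipid group had a mean over 5.98 FPKM, and their summed level was 15.8 ± 0.811 FPKM in Ctrl and 19.98 ± 2.12 FPKM in MIR21-KO libraries. Of 17 genes 7 were tested, 1 rose, 0 fell, and 6 were not called. By limma 3 of the 7 had an unadjusted p under 0.05. At least 32.0% of all tested genes had such a p, since that share had an FDR under 0.05. Voom called 3 higher, ABCA3, ABCA5 and ABCA7, and 21.8% of all genes in either direction. ABCA7 (ENSG00000064687, chr19:1040101-1065572, plus), which moves phospholipids and is known as a risk gene of Alzheimer's disease, had 1.47, 1.5 and 1.55 FPKM in Ctrl and 2.82, 2.92 and 2.69 FPKM in MIR21-KO libraries. Values were tight within each group and far apart between them (log2 fold change 0.86 ± 0.117 SE, FDR = 0.00254, limma). ABCA7 was still called without MIR21-KO replicate 1 or 3 and not without any one of the other 4 libraries, where its FDR reached 0.0203. Without any one of these 4, calls over all genes fell as well, from 2568 to between 768 and 922.

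ABCA3, the surfactant phospholipid pump of lamellar bodies, was the most abundant gene of the group. Its 4.72, 4.98 and 5.43 FPKM in Ctrl libraries lay below the 6.92, 6.52 and 7.29 FPKM of MIR21-KO libraries, but the FDR of 0.0126 missed the threshold (log2 fold change 0.45 ± 0.0943 SE, limma). ABCA5, a lysosomal transporter whose 3′ UTR match is shown above, stood at 0.776, 0.622 and 0.917 FPKM in Ctrl and 1.28, 1.57 and 1.55 FPKM in MIR21-KO libraries. It was not called (log2 fold change 0.85 ± 0.205 SE, FDR = 0.0200, limma), although its mean was 1.9-fold higher. ABCA1, which loads cholesterol onto apolipoprotein A-I, had 3.80, 3.65 and 3.77 FPKM in Ctrl libraries. Its MIR21-KO libraries spread from 2.86 through 3.94 to 5.36 FPKM, around the Ctrl values (log2 fold change 0.07 ± 0.215 SE, FDR = 0.832, limma).

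ABCA2, a lipid transporter of lysosomes, overlapped between groups (log2 fold change 0.08, FDR = 0.614), as did the cholesterol exporter ABCG1 (-0.14, FDR = 0.798). ABCA12, the ceramide transporter of the epidermis, had 0.639 ± 0.0678 FPKM in Ctrl and 0.444 ± 0.154 FPKM in MIR21-KO libraries and did not overlap, with a log2 fold change of -0.48 and an FDR of 0.331. Of the 10 untested lipid genes ABCA10 was highest at a mean of 0.205 FPKM, and the bile lipid transporters ABCB4 and ABCG8 were listed at 0 throughout. The 5 positive and 2 negative log2 fold changes of the group had a median of 0.08, against -0.08 for the 7 tested pumps, of which 3 were positive and 4 negative. The difference between these medians was not tested.

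**Figure D4:**
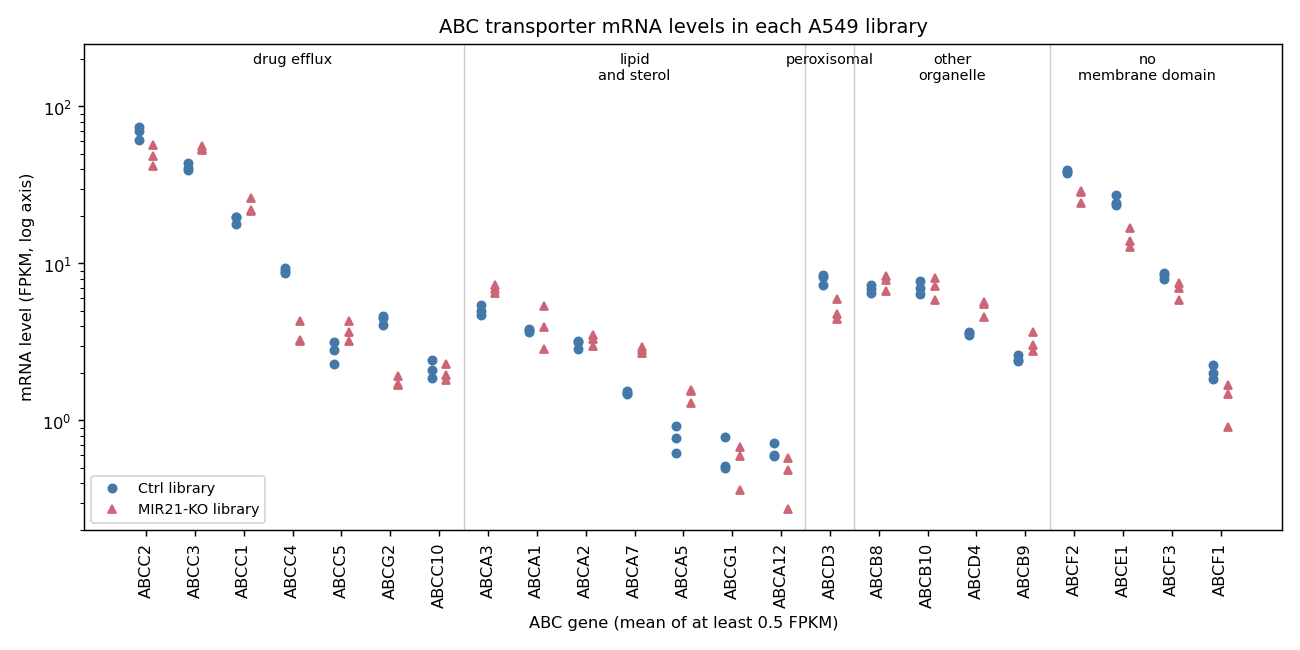
mRNA level (FPKM, logarithmic axis) of 23 of the 25 tested ABC genes in each of 3 Ctrl (circles) and 3 MIR21-KO (triangles) libraries, ordered by group and mean level. The pump ABCC2 reaches 74.1 FPKM and no lipid transporter exceeds 7.29 FPKM in a library, a level above every value of the pumps ABCC5, ABCG2 and ABCC10.

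The 4 genes without a membrane domain all had negative log2 fold changes, with a median of -0.54, and none overlapped between groups. Of all tested genes 25.2% were lower without overlap, and of protein-coding genes 30.1%. Of them 2 fell and 2 were not called. ABCE1 (ENSG00000164163, chr4:145097932-145129179, plus) splits ribosomes for recycling and carries iron-sulfur clusters. It had 27.2, 24.2 and 23.7 FPKM in Ctrl and 12.7, 14.0 and 16.7 FPKM in MIR21-KO libraries, which were all well below Ctrl (log2 fold change -0.79 ± 0.117 SE, FDR = 0.00347, limma). ABCF2 (ENSG00000033050, chr7:151212490-151227230, minus) had 38.7, 37.9 and 39.5 FPKM in Ctrl and 28.98, 28.6 and 24.4 FPKM in MIR21-KO libraries, again apart (log2 fold change -0.50 ± 0.0863 SE, FDR = 0.00599, limma). Both calls were kept without MIR21-KO replicate 1 or 3 and lost without any one of the other 4 libraries, with FDRs of up to 0.0223 for ABCE1 and 0.0331 for ABCF2. In the fits where they were lost, calls over all genes fell from 2568 to between 768 and 922.

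ABCF3 had 7.92, 8.43 and 8.71 FPKM in Ctrl and 7.54, 6.97 and 5.85 FPKM in MIR21-KO libraries (log2 fold change -0.30, FDR = 0.0835, limma). ABCF1, a factor of translation initiation, had 2.03 ± 0.222 and 1.36 ± 0.406 FPKM (log2 fold change -0.58, FDR = 0.112). The gene span of ABCE1, introns included, shares 18342 bases with that of OTUD4 on the opposite strand, which had a mean of 5.96 FPKM. The span of ABCF2 shares 14677 bases with that of AC021097.2, annotated as a protein-coding gene of the same strand, for which no FPKM was available. Overlap of exons alone was not measured. How reads of such overlaps were assigned is not given in the sources used here, so these values are less certain.

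Peroxisomal transporters import fatty acids for degradation. ABCD3, which carries branched-chain and dicarboxylic acids and bears the 8mer shown above, had 8.16, 7.31 and 8.47 FPKM in Ctrl and 4.44, 4.76 and 5.98 FPKM in MIR21-KO libraries. Its groups were apart, and the FDR of 0.0107 lay just above the threshold (log2 fold change -0.66 ± 0.132 SE, limma), so that it was not called, whereas voom gave an FDR of 0.00261. ABCD2 had at most 4 reads in a library.

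Of the 6 other organelle transporters 5 were tested and 0 were called by limma, while 2 had an unadjusted p under 0.05 and voom called 1, ABCD4. At least 32.0% of all tested genes had such a p and voom called 21.8%. The mitochondrial transporters ABCB8 (log2 fold change 0.15, FDR = 0.351) and ABCB10 (-0.01, FDR = 0.977) had mean levels of 6.87 to 7.64 FPKM per group. ABCB10, which takes part in heme synthesis, had the same mean in both groups within its spread, 7.01 ± 0.670 and 7.02 ± 1.11 FPKM. ABCD4, the lysosomal cobalamin transporter, had 3.59, 3.68 and 3.52 FPKM in Ctrl and 5.68, 5.52 and 4.54 FPKM in MIR21-KO libraries, which were all higher but not called (log2 fold change 0.53 ± 0.114 SE, FDR = 0.0140, limma). ABCB9, a lysosomal peptide transporter, had a log2 fold change of 0.32 (FDR = 0.115), and ABCB6 was under the filter.

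None of the 5 remaining genes, ABCB11, ABCC6, ABCC8, ABCC9 and ABCC12, reached the filter. ABCC8, a subunit of potassium channels of pancreatic beta cells, was highest of all 20 untested ABC genes. It had 0.139, 0.165 and 0.162 FPKM in Ctrl and 0.509, 0.711 and 0.671 FPKM in MIR21-KO libraries, from 12 to 59 reads. Each MIR21-KO value was thus above each Ctrl value. Without overlap the exact two-sided permutation test can only give p = 0.1, the smallest that 3 against 3 libraries allow, so it adds nothing here. This also holds for ABCC6, ABCA8, ABCA9 and ABCA10, the other untested genes without overlap. The share of all untested genes without overlap was not counted. Without the filter on low values ABCC8 had an FDR of 0.0126 (limma), where 6.16% of 29384 genes were called. ABCC6 ran the other way, at 0.317 ± 0.0317 FPKM in Ctrl and 0.139 ± 0.0524 FPKM in MIR21-KO libraries, from 8 to 35 reads, and its near-identical pseudogene ABCC6P2 had a mean of 0.359 FPKM.

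The calls differed in how far they depended on the analysis. At an FDR under 0.05 limma called 12 of the 25 ABC genes, 6 in each direction, and 32.0% of all genes. ABCC4 was called in all 21 alternative analyses and ABCG2 in all 20 that gave it a value, with FDRs of 4.27e-05 to 0.00715 and 6.96e-05 to 0.00769. ABCE1 was called in 15 of 21, ABCF2 in 13 of 21 and ABCA7 in 13 of 20. These counts include the FDR under 0.05, a looser threshold on the same fit at which no call could be lost. Whichever of the 6 libraries was left out, ABCC4 and ABCG2 were still called, and the other 4 genes were lost without Ctrl replicate 1, 2 or 3 or MIR21-KO replicate 2. Most calls over all genes were lost in those fits as well, with 895, 922, 873 and 768 left of 2568. Without MIR21-KO replicate 3 there were 9 ABC calls, ABCC2, ABCD3 and ABCD4 being added, and the calls over all genes rose from 2568 to 3400.

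**Figure D5:**
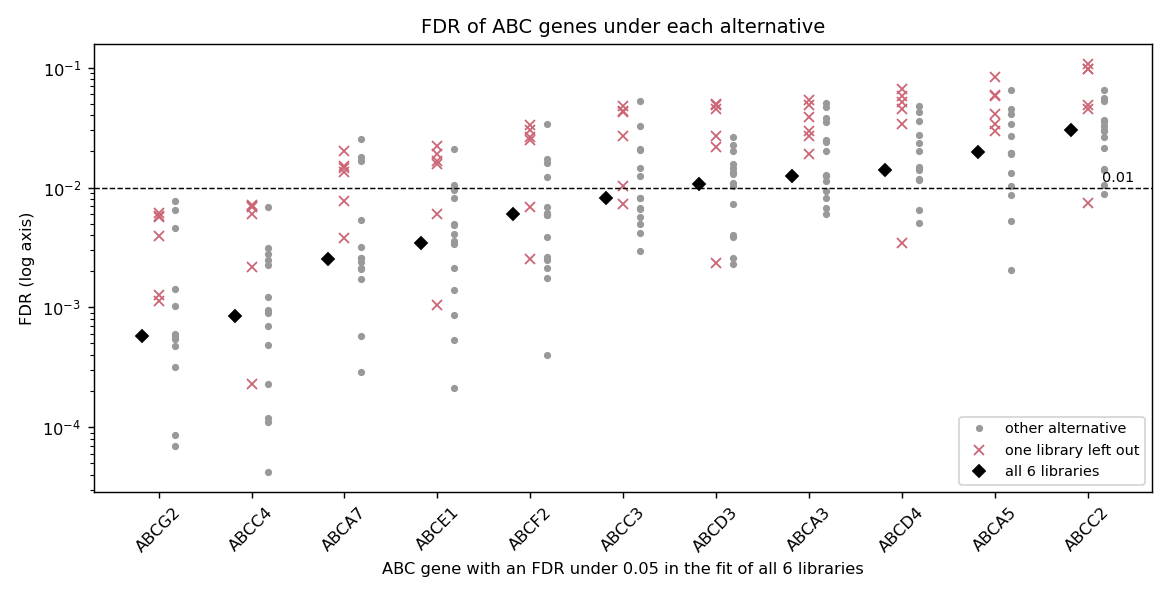
FDR (logarithmic axis) of 11 of the 12 ABC genes with an FDR under 0.05, for the fit of all 6 libraries (diamonds), each fit without 1 library (crosses) and the other alternatives (dots); the dashed line is 0.01. Every mark of ABCG2 and ABCC4 lies under the line, with a highest FDR of 0.00769 and 0.00715, and the other genes have marks on both sides.

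Promoters were examined because ABCC4 and ABCG2 fell together and because NFE2L2, the oxidative stress factor, is known to act on pump genes through antioxidant response elements. The core TGACNNNGC was searched for on both strands in RefSeq promoters of GRCh38.p14, 250 bases before to 50 after each start, which were found for 35 of the 45 genes. It was present for 12 of the 35 genes (34.3%), for 18.2% of 14396 protein-coding genes and for 16.1% of all 27305 genes. Genes with several starts have more chances to hold it. Per start the shares were 22.6% of 53 for ABC genes, 13.8% of 20430 for protein-coding genes and 13.3% of all 35116. The matches of ABCC4, at chr13:95301582-95301610, and ABCG2, at chr4:88159271-88159299, are shown along the minus strand of each gene, with the match in capitals.
ABCC4: gtctcctcccGCCGCGTCAcccgtcggtc
ABCG2: gcagcgcttgTGACTGGGCaacctgtgcg
The ABCC4 match is the reverse complement of the core and that of ABCG2 its forward form. Among genes not called, ABCC10, ABCA2, ABCA3, ABCA5, ABCB9, ABCD4 and ABCF1 also held the core, as did the untested ABCB6, ABCC11 and ABCG4. The called ABCA7, ABCE1 and ABCF2 were not among the 12 genes with a match, and neither was ABCC2. ABCC1 and ABCC3 had no entry. A match does not show that the factor binds.

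The counts of the partner lists that follow stand against the 7.66% of all tested genes called higher and 8.38% called lower. Among protein-coding genes these shares were 9.1% and 10.6%. Among 19 regulators of ABC genes, 17 were tested, 1 rose and 3 fell. HNF4A, a nuclear receptor of liver and gut, fell from 4.21 ± 0.437 to 0.449 ± 0.0670 FPKM (log2 fold change -2.97, FDR = 0.000107, limma). The fatty acid receptor PPARG fell from 11.3 ± 0.141 to 5.76 ± 0.353 FPKM (-0.97, FDR = 0.000381), and PPARD rose from 3.46 ± 0.400 to 6.11 ± 0.392 FPKM (0.80, FDR = 0.00327). NFE2L2 itself had 12.1 ± 0.121 and 13.5 ± 0.827 FPKM (0.15, FDR = 0.165), and its repressor KEAP1 26.6 ± 0.709 and 26.7 ± 3.07 FPKM (-0.01, FDR = 0.973). These last genes were named after their values were seen.

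Pump substrates are often glutathione conjugates, and 13 of 15 genes of glutathione synthesis and conjugation were tested. GCLC, the catalytic subunit of the rate-limiting enzyme of glutathione synthesis, fell from 20.5 ± 0.654 to 9.82 ± 0.963 FPKM (log2 fold change -1.06, FDR = 0.000425, limma). Glutathione reductase, GSR, fell from 88.3 ± 0.887 to 63.5 ± 1.41 FPKM (-0.48, FDR = 0.00271). The transferase GSTO1 rose from 71.1 ± 2.97 to 133 ± 22.8 FPKM (0.88, FDR = 0.00354), and 10 genes were not called.

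For the lipid transporters, 10 of 11 sterol partner genes were tested and 1 rose, NPC2, a carrier of lysosomal cholesterol (41.2 ± 2.36 to 82.5 ± 14.1 FPKM, log2 fold change 0.99, FDR = 0.00261, limma). Of 8 surfactant and lamellar body genes, which work beside ABCA3, only 2 were expressed highly enough to test. One of them, LPCAT1, an enzyme that makes surfactant phosphatidylcholine, fell from 11.6 ± 1.0 to 3.08 ± 0.638 FPKM (-1.90, FDR = 0.000392). The other, the aspartic protease NAPSA, was not called (0.18, FDR = 0.674), and the untested SFTPD had the higher reads in MIR21-KO libraries given above. All 6 peroxisomal partners were tested and 0 were called by limma, with 1 unadjusted p under 0.05 and 1 call by voom, both of ACBD5, a tether of peroxisomes. At least 32.0% of all tested genes had such a p and voom called 21.8%.

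The 9 iron-sulfur, heme and ribosome partners of ABCB10 and ABCE1 were all tested, and all had negative log2 fold changes with a median of -0.38, against -0.02 for all tested genes. Without overlap 8 of the 9 were lower, against 25.2% of all tested genes and 30.1% of protein-coding genes. The list was chosen with earlier results of these data known, so its counts are no test. Of the 9 genes 3 fell, against 8.38% of all tested and 10.6% of protein-coding genes. These 3 were ALAS1, the first enzyme of heme synthesis (-0.61, FDR = 0.00105, limma), the initiation factor subunit EIF2S1 (-0.53, FDR = 0.00181) and FECH, the last enzyme of heme synthesis (-0.38, FDR = 0.00783). The ABC proteins with other names, CFTR, TAP1 and TAP2, were under the filter, and TAP1, a peptide transporter of antigen presentation, had 0.333 ± 0.0461 FPKM in Ctrl and 0.443 ± 0.0828 FPKM in MIR21-KO libraries. Of the tested marker genes limma called 1, the epithelial cadherin CDH1, which fell from 8.18 ± 0.584 FPKM in Ctrl to 2.86 ± 0.148 FPKM in MIR21-KO (-1.48, FDR = 0.000175). KRT18, COL3A1, PDGFRB, TEK and SFTPD, given above, also stood apart between the groups. The summed levels of the epithelial markers were 1684 to 1807 FPKM in Ctrl and 1217 to 1745 FPKM in MIR21-KO libraries, those of the fibroblast markers 5.60 to 5.91 and 5.48 to 7.80 FPKM, and those of the alveolar type 2 markers 0.672 to 0.781 and 0.879 to 1.62 FPKM. The part of these markers in the ABC differences was not tested.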

How the data were processed

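Per the labels, polyA RNA went into strand-specific libraries for Illumina sequencing. The submitters' processing notes name cutadapt 1.14, HISAT2 2.1.0, SAMtools 1.5, featureCounts 1.5.3, edgeR 3.18.1 and hg38; the annotation release, the strand setting and the handling of reads shared by overlapping genes or paralogs are not given in the sources used here. The authors deposited 1 table with gene length and the FPKM of each library. Its columns of the authors' own comparison (log2 fold change, p-value and FDR, which the study obtained after TMM normalization) were not used.

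FPKM times length gave whole reads for 100% of values (tolerance 0.01 reads), with library sizes 0.950 to 1.03 times the summed reads. No pair of libraries agreed within sampling noise (chi-square per degree of freedom of at least 2.64; it was 2.64 to 5.13 within Ctrl, 7.67 to 11.8 for 2 pairs within MIR21-KO and 32.9 for its replicates 1 and 3). Log2 values correlated across genes at 0.950 to 0.959 within Ctrl, 0.933 to 0.957 within MIR21-KO and 0.896 to 0.912 between groups.

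Genes averaging 0.5 FPKM or more (16006) entered 1 limma fit (version 3.58.1, R 4.3.3; eBayes with trend and robust fitting, no covariate, two-sided) of log2(FPKM + 0.1). P-values were adjusted by Benjamini-Hochberg over all of them. The procedure was run on simulated data with the same spread in both groups, whereas the MIR21-KO libraries here differed more among themselves than Ctrl. The simulation thus does not show how the procedure performs with such unequal spread. Alternatives were the replicate number as a block, each library left out, other pseudocounts and filters, median-ratio and total-read scaling, limma without trend or robust fitting, voom on recovered reads with the authors' library sizes, an FDR of 0.05, protein-coding genes only and removal of length trends. Removal of GC and length trends (lowess, span 0.3; GC known for 15955 genes, 99.7%) was added after seeing the data.

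Replicate numbers come from the titles. Coordinates and 3′ UTRs came from GENCODE 29 by gene identifier (57836 of 58174 matched), miRNAs and promoters from RefSeq (GRCh38.p14). Genes to name were every called ABC gene, every tested pump, the 3 most abundant genes of each other group, untested genes by their highest value or count, CFTR, TAP1 and TAP2, and the called genes of each partner list; the remaining members, NFE2L2, KEAP1, CD14, CDH1 and other markers, and ACBD5 were named in addition. Members, groups and lists were chosen with earlier results of these data known. Floors of 3 reads cover counting error only. Python 3.11.15 with matplotlib 3.10.9 made the figures. Counts cover all members and lists, but a few genes are not reported by name here.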

Additional observations from a re-analysis of the deposited data

How the results depend on the processing

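The number of ABC genes called was 6, with 3 pumps, 1 lipid gene and 2 others. It was 2 to 9 when 1 library was left out, with 2 to 4 pumps, 0 to 1 lipid genes and 0 to 4 others, and the count was 2 without Ctrl replicate 1, 2 or 3 or MIR21-KO replicate 2. Without these libraries the calls over all genes fell too, from 2568 to 895, 922, 873 and 768 in that order. Voom and protein-coding genes only each gave 11 (3 lipid, 5 others) and an FDR under 0.05 gave 12 (3 lipid, 5 others). Over all genes voom called 3496 and an FDR under 0.05 called 5114, and the fit of protein-coding genes called 3253 of 11719. Removing the length trend gave 8 with 2 lipid genes, and removing GC and length trends, chosen after seeing the data, gave 10 with 2 lipid genes and 4 others. Over all genes these fits called 3334 and 3954. The others numbered 1 with low genes kept in the test, which raises its number of genes, and 1 without trend or robust fitting. These fits called 1810 of 29384 and 1946 of 16006 genes. The median log2 fold change of lipid genes, 0.08, was 0.032 to 0.29 without 1 library (0.29 without MIR21-KO replicate 1) and 0.45 at a mean of at least 5 FPKM, where only ABCA3 is left. That of the pumps, -0.08, was -0.17 to 0.01 without 1 library, positive without Ctrl replicate 3.

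With the replicate number as a block, 2 ABC genes were called, ABCC4 and ABCG2, with 0 lipid genes and 0 others, and of all genes 651 in place of 2568. The count was also 2, with 0 lipid genes and 0 others, under the block with the length trend removed, and 4 with 0 lipid genes under the block with GC and length trends removed. Over all genes these fits called 1325 and 1761. Of the 25 tested ABC genes 13 had an unadjusted p under 0.05 with the block, and the share of all genes with such a p under the block was not counted. Same-numbered libraries did not deviate together (correlations of -0.171, -0.018 and -0.017), and the numbers were not treated as pairs.

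Signs turned for genes that were not called. Without 1 library the log2 fold change of ABCB10 (-0.01) was -0.11 to 0.12, that of ABCC10 -0.17 to 0.014, that of ABCG1 -0.29 to 0.090 and that of ABCA1 -0.15 to 0.29. ABCB10 was also positive under median-ratio scaling (0.012), with the length trend removed (0.0098) and with GC and length trends removed (0.047), and ABCA2 was negative with GC and length trends removed (-0.043); the values with trends removed were the same with the block. Pseudocounts of 1 and 0.01 changed no ABC call. Scaling moved the median of all genes by less than 0.1. The cause of these shifts was not tested. Depth limits the 20 untested ABC genes, which had at most 59 reads in a library.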
